A study of Mus musculus with 117 samples.

Results

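The 7 genes Srebf2, Insig1, Hmgcs1, Idi1, Sqle, Lss and Scarb1 were taken as a named set of cholesterol synthesis and uptake genes, out of 21627 protein-coding genes of the autosomes and X. Each was followed over its annotated span with 2 kb added to each side. The data were chromatin immunoprecipitation sequencing (ChIP-seq) of liver hepatocytes from female mice aged 12 weeks. The groups were 9 inbred strains, with no treatment named in the labels. The laboratory strains were C57BL/6J, A/J, 129S1/SvImJ, NOD/ShiLtJ, NZO/HlLtJ and DBA/2J, and the wild-derived strains were WSB/EiJ, PWK/PhJ and CAST/EiJ. Each strain had libraries for H3K4me1, H3K4me3, H3K27ac and H3K27me3 from 3 mice and 1 input library. The deposited result is 1 map per strain, in which the genome is cut into bins of 200 bp and each bin carries the number of 1 of 14 chromatin states. A map combines the mice of its strain, so a strain is 1 value, every SD below is over the 9 strains, and differences between single strains have no replicate check.

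Hepatocytes both make cholesterol and take it up from lipoproteins. When sterols are low, the transcription factor SREBP-2, the product of Srebf2, is escorted from the endoplasmic reticulum to the Golgi and cut free from the membrane, and it then acts on genes of the mevalonate and sterol pathways together with NF-Y and Sp1. Insig1 encodes a membrane protein that holds the SREBP-2 complex in the endoplasmic reticulum when sterols are plentiful. Hmgcs1 (cytosolic HMG-CoA synthase) and Idi1 (isopentenyl diphosphate isomerase) act in the mevalonate branch, Sqle (squalene epoxidase) and Lss (lanosterol synthase) in the sterol branch, and Scarb1 encodes SR-BI, a receptor that takes up cholesteryl ester from high-density lipoprotein.

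The promoters of 5 of the 7 genes are shown because they lie at the state 3 segments described below, which cover them to unequal extents. They are RefSeq reference sequence of GRCm38.p6 on the plus strand, 5′ to 3′, up to the base before the annotated start of the gene, and strain differences in sequence were not analysed. Capitals mark matches to 4 motifs searched on both strands, TCACNCCAC (sterol regulatory element), CCAAT (NF-Y), GGGCGG (Sp1) and CACGTG (E-box).
Srebf2, chr15:82147019-82147268: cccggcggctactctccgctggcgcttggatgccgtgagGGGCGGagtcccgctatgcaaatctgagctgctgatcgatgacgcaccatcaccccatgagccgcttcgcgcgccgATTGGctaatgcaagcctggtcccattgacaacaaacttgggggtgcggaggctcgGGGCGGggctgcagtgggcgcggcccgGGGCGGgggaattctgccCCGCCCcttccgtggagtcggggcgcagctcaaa
Insig1, chr5:28071162-28071411: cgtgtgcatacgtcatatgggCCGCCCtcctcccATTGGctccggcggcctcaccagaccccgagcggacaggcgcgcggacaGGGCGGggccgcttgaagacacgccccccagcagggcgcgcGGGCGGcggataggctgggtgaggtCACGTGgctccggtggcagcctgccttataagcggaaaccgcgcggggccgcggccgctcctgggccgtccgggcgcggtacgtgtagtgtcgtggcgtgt
Hmgcs1, chr13:119690101-119690350: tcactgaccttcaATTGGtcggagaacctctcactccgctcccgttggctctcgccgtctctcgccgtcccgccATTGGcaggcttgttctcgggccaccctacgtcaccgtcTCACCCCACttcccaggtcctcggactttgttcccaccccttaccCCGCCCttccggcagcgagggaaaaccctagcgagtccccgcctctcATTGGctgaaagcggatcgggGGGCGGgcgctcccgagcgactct
Idi1, chr13:8885356-8885605: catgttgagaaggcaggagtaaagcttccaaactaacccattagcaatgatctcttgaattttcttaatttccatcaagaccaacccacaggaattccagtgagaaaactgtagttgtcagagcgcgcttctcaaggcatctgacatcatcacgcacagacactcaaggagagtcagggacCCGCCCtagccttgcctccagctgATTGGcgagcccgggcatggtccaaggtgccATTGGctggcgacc
Lss, chr10:76531355-76531564: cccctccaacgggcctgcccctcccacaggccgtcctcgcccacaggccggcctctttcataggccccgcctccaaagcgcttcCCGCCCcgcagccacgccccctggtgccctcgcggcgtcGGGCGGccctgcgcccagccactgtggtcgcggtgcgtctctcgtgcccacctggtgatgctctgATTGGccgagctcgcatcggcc
CCAAT was found in all 5 promoters, 8 times in all and each time on the minus strand, which reads ATTGG on the strand printed. Of 32851 RefSeq promoter windows of 250 bases, 33.8% held CCAAT. The Sp1 motif was found in all 5, with 12 matches, and in 32.7% of all windows. TCACNCCAC was found in Hmgcs1 alone among the 5, as TCACCCCAC at chr13:119690214-119690222, and in 1.05% of all windows. CACGTG was found in Insig1 alone among the 5, at chr5:28071311-28071316, and in 6.02% of all windows. A match is a run of letters in the reference and was not tested for binding. Only exact matches were searched, so a promoter without a match to a motif can still hold a near one.

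State numbers are used as names, since no mark content is assigned to a state in the sources used here, and their usual place was read from 17273 genes whose strand was known. State 3 sat at gene starts: it covered 33.98% of the bins that hold a start against 0.389% ± 0.0390 of the genome. State 1 flanked the start on both sides, with 30.6% at 800 bp inside the gene and 30.2% at −400 bp. State 8 was most frequent further in, at 1600 bp (15.5%). State 9 also lay on both sides, with 15.7% at −1800 bp and 15.5% at 2800 bp inside the gene. State 14 covered 72.3% ± 1.26 of the genome and state 13 covered 15.9% ± 1.08. Of 7 hepatocyte marker genes, 5 carried state 3 at the start in all 9 strains, Alb, Ttr, Ahsg, Cps1 and Fgb. The hepatocyte markers Hnf4a and Tat had it in no strain. None of 6 endothelial, 6 Kupffer cell and leukocyte and 4 bile duct markers had it in all 9, and of 4 stellate markers Reln did. Some of these had it in part of the strains: Cd68 in 7, Clec4g and Sox9 in 6 each, Pecam1 in 5 and Stab2 in 4. The lists are thus not cleanly split by state 3. The mean share of state 1 was 48.3% over the hepatocyte markers and between 0.169% and 5.99% over the other marker lists. Single markers crossed this: state 1 covered 34.4% of Cd68, 16.5% of Lyve1 and 16.0% of Sox9, against 14.2% of Cps1.

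As a mean over the 7 genes, state 1 took a larger share of the spans and state 14 a smaller share than over all genes. State 1 covered 26.1% ± 3.92 of their bins against 8.72% ± 0.564 over all protein-coding genes. State 3 covered 5.80% ± 1.14 against 2.48% ± 0.261, state 4 covered 12.6% ± 3.06 against 4.24% ± 0.945, and state 8 covered 8.28% ± 2.48 against 3.08% ± 0.784. State 14 covered 30.5% ± 3.58 against 55.4% ± 2.41, and state 9 covered 2.47% ± 1.01 against 4.36% ± 1.63. Single genes went the other way: state 14 covered 62.6% of Lss and 58.2% of Sqle, and state 1 covered 9.84% of Lss, close to the all-gene share. State 3 covered 20.7% of Insig1 but 1.54% of Srebf2 and 1.66% of Scarb1, below the all-gene share. State 4 covered 2.75% of Sqle, less of Hmgcs1 and none of Idi1. State 8 covered 0.195% of Insig1 and 0.619% of Scarb1. For states 3, 4 and 8 the remaining genes were above the all-gene share. State 9 covered 8.23% of Idi1, above its all-gene share. States 5, 7, 10, 11, 12 and 13 did not occur in any bin of the 7 genes in any strain, while state 13 covered 13.3% ± 0.878 of all gene spans. Padding by 5 kb lowered the state 1 share to 22.1% and raised the state 14 share to 36.1%.

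State 3 was present within 1 kb of the start in all 9 strains in Srebf2, Insig1, Hmgcs1, Idi1 and Lss, the 5 genes with a known strand, and in 39.4% of all genes with a strand. Scarb1 and Sqle had no strand in the table used, so both of their ends were searched. Scarb1 had state 3 in all 9 strains, at its upper-coordinate end, as did 36.2% of the genes without a strand. Sqle had it at its lower-coordinate end in 8 strains and lacked it in WSB/EiJ, and 1.95% of all genes had state 3 in exactly 8 strains. WSB/EiJ was the missing strain in 79 of these 422 genes, between 18 for DBA/2J and 97 for NOD/ShiLtJ. WSB/EiJ also had the least state 3 over the whole genome, 0.348%, with 0.441% in NZO/HlLtJ as the highest. The part of this level in the absence at Sqle was not tested. Over the windows of the 7 genes state 3 filled 30.9% ± 2.95 of the bins, from 26.3% in CAST/EiJ to 35.4% in C57BL/6J, against 13.05% ± 0.800 over all genes. Over the 5 genes with a strand it filled 41.6% ± 3.69 against 15.7% ± 0.941 over all genes with a strand. All 5 carry state 3 there in all 9 strains and 39.4% of the compared genes do, so this gap partly restates presence.

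**Figure D1:**
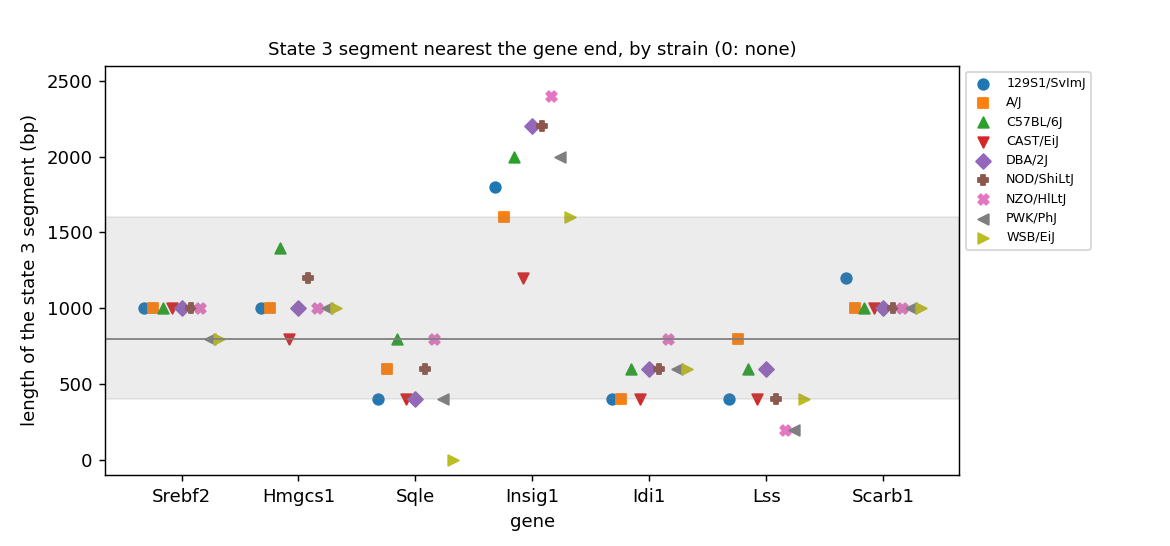
Length in bp (vertical axis) of the state 3 segment nearest the gene end for each of the 7 genes (horizontal axis), 1 symbol per strain, with the median (line, 800 bp) and the 400 to 1600 bp range that holds the middle 80% of genes with a strand and state 3 in 9 strains (grey band). Insig1 reaches 2400 bp, Sqle is at 0 in WSB/EiJ, and Srebf2 and Scarb1 are nearly level over the strains.

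The length of the state 3 segment differed between the genes. In Srebf2 it ran over chr15:82147001-82148000 in 7 strains and was 800 bp in PWK/PhJ and WSB/EiJ. In Scarb1 it ran over chr5:125340201-125341200 in 8 strains and was 1200 bp in 129S1/SvImJ. These are the most even of the 7: the strains differed by 1 bin at most. In Insig1 the segment was the longest of the 7, with 1200 bp in CAST/EiJ as the lowest value, a median of 2000 bp and 2400 bp in NZO/HlLtJ as the highest. Its left edge was at chr5:28071001 in all 9 strains, so that only the edge inside the gene moved. The Insig1 median was longer than in 96.9% of the 6805 genes with a strand and state 3 at the start in all strains. Their own median was 800 bp. In Lss it was the shortest, from 200 bp in NZO/HlLtJ and PWK/PhJ over a median of 400 bp to 800 bp in A/J, and 4.19% of the 6805 genes had a shorter one. In Hmgcs1 the segment always began at chr13:119690001 and was 800 bp in CAST/EiJ, 1200 bp in NOD/ShiLtJ, 1400 bp in C57BL/6J and 1000 bp in the other 6 strains. In Idi1 it was between 400 and 800 bp, with a median of 600 bp. In the 8 strains that had the segment in Sqle it was between 400 and 800 bp, with a median of 500 bp. It was 400 bp, which is 2 bins, in 129S1/SvImJ, CAST/EiJ, DBA/2J and PWK/PhJ, so its absence in WSB/EiJ is a change of few bins. State 1 lay directly on both sides of the segment in every gene and strain that had one, except to the right of Sqle in CAST/EiJ (state 9) and PWK/PhJ (state 8).

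The printed promoters fell under this segment to unequal extents. The bins holding the promoters of Srebf2, Hmgcs1 and Insig1 were in state 3 in all 9 strains. Of the 3 bins holding the Idi1 promoter, the first 2 were in state 1 and only the one at the start was in state 3 in 8 strains, and NZO/HlLtJ had state 3 in 2 of the 3. In Lss, whose RefSeq window of 250 bases reaches 1 bin beyond the letters printed, the number of bins in state 3, out of 3, was 1 in NZO/HlLtJ and PWK/PhJ and 3 in A/J, C57BL/6J and DBA/2J, and the other 4 strains had 2. State 9 was present in the 2 kb before the start in all 9 strains in Idi1 and Lss, and 18.7% of all genes with a strand had it there in at least 8 strains. It was present there in no strain in Srebf2, Hmgcs1 and Insig1. State 8 was present within 5 kb after the start in all 9 strains in Srebf2, Idi1 and Lss, in 8 strains in Hmgcs1 and in none in Insig1. Of all genes with a strand, 33.7% had it there in at least 8 strains, as did 4 of the 5.

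How much a gene differed between strains was measured as the percentage of its bins whose state differed between a pair of strains, averaged over the 36 pairs, and is called strain disagreement here. The median of the 7 was 28.5% against 19.7% over all genes. The median over the 8380 genes with state 3 at the start in all strains was 21.6%. Hmgcs1 had 41.4% ± 5.17, more than 93.8% of genes. Srebf2 had 36.5% ± 6.27, more than 88.6% of genes. Scarb1 (28.6% ± 4.72), Sqle (28.5% ± 3.43) and Lss (27.2% ± 4.46) were next and lay within each other's SD. Insig1 (24.4% ± 6.58) and Idi1 (22.8% ± 2.40) were lowest, but Insig1 also lay within the SD of Scarb1 and Lss. The SD is over strain values that share pairs, so it gives no error for this order. Idi1 still had more than 58.8% of genes. The order depends on how bins in state 14 are counted. Bins outside state 14 in at least 1 strain are called marked bins, by state number and not by any known mark. Over bins outside state 14 in at least 1 strain, Sqle came first with 45.7%, more than 91.5% of genes, and Insig1 came last with 24.4%, more than 16.3% of genes. The median of the 7 was then 38.5% against 34.5% over all genes, and Insig1, Scarb1 (28.6%) and Idi1 (33.3%) were below the all-gene median. Hmgcs1 then had more than 81.0% of genes and Srebf2 more than 69.8%.

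**Figure D2:**
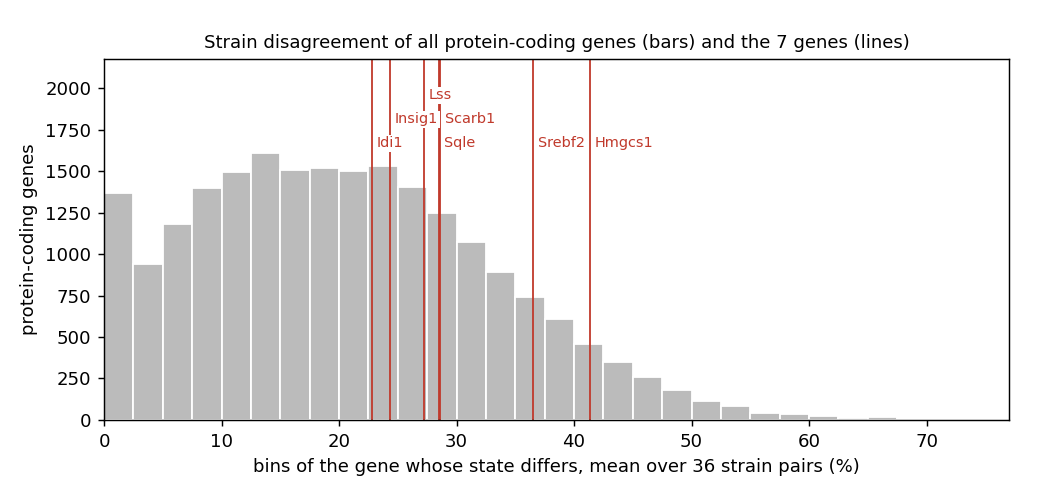
Number of protein-coding genes (vertical axis) by strain disagreement, the percentage of a gene's bins whose state differs, averaged over 36 strain pairs (horizontal axis), with a line for each of the 7 genes. Over all bins, as plotted, the 7 lines lie right of the all-gene median of 19.7%, with Hmgcs1 at 41.4% furthest right, whereas over marked bins 3 of the 7 were below the median.

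The strain that stood furthest from the others was not the same in each gene. It was PWK/PhJ in Srebf2 (48.1%) and Scarb1 (37.8%), NOD/ShiLtJ in Hmgcs1 (50.8%) and Idi1 (27.8%), CAST/EiJ in Insig1 (37.7%), NZO/HlLtJ in Sqle (35.5%) and WSB/EiJ in Lss (36.9%). Averaged over the 7 genes, 129S1/SvImJ and DBA/2J were the most alike pair (22.8%) and CAST/EiJ and NOD/ShiLtJ the least alike (41.3%). Of the 1124 bins of the 7 genes, 46 were private to CAST/EiJ, which means that the other 8 strains shared a state there and CAST/EiJ had another. This is 4.09%, against 2.33% over all gene spans. PWK/PhJ had 3.65% against 3.59%, NZO/HlLtJ had 3.56% against 0.990%, C57BL/6J had 2.22% against 0.685% and 129S1/SvImJ had 1.16% against 0.963%. The other 4 strains were below their all-gene share: WSB/EiJ had 1.69% against 2.15%, NOD/ShiLtJ 1.07% against 1.62%, A/J 0.623% against 1.25% and DBA/2J 0.445% against 0.801%. Adjoining bins are not independent, and single long stretches described below make up much of these counts.

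**Figure D3:**
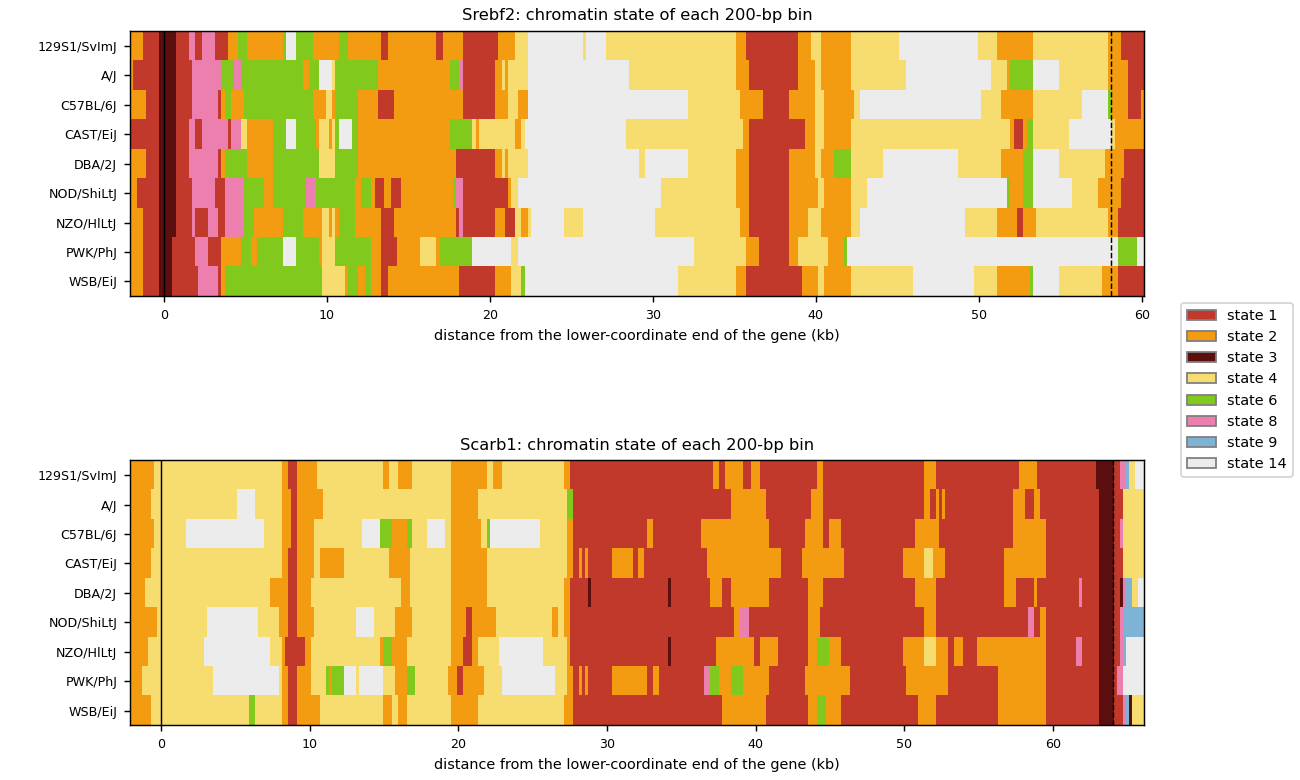
State of each 200-bp bin (colour) along Srebf2 and Scarb1 in the 9 strains (rows), by distance in kb from the lower-coordinate end of the gene, marked by a solid line, with the other end dashed. In Srebf2 the state 1 block near 18.3 kb is missing in CAST/EiJ and PWK/PhJ and the block near 35.9 kb is present in all 9 strains, and in Scarb1 state 1 fills most of the part next to the state 3 segment.

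Srebf2 lies at chr15:82147269-82205379 on the plus strand and covered 311 bins with its padding. The share of its bins outside state 14 was 50.2% in PWK/PhJ, 76.2% in WSB/EiJ, which was the median strain, and 83.9% in 129S1/SvImJ. PWK/PhJ stood apart from the other 8 strains, of which the lowest was NOD/ShiLtJ with 68.2%. The commonest exchange between strains was between states 4 and 14, which made up 38.9% of all differing bin pairs of Srebf2, followed by states 2 and 6 with 16.7%. State 4 covered from 36 bins in PWK/PhJ over a median of 69 to 119 in CAST/EiJ. State 4 also varied over the whole genome, from 1.78% in NOD/ShiLtJ to 3.27% in CAST/EiJ, with 2.21% in PWK/PhJ, and its part in the Srebf2 values was not tested.

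Inside Srebf2, 2 blocks of state 1 lay far from the start. They and the other blocks below were looked for after the data had been seen, as runs of 5 or more bins in which at least 5 strains had state 1. The first, chr15:82165601-82167600, began 18.3 kb into the gene and was in state 1 in all 10 bins in 7 strains. It had no bin in state 1 in CAST/EiJ, where states 2, 4 and 6 took its place, or in PWK/PhJ, where 7 bins were in state 14 and 3 in state 6. The second, chr15:82183201-82185600, began 35.9 kb into the gene and was in state 1 in all 9 strains, in 8 of 12 bins in C57BL/6J, 9 in PWK/PhJ and all 12 in the other 7. Within it, chr15:82184001-82185600 was the same in all 9 strains. A block just past the end of Srebf2, chr15:82206201-82207400, lies at the lower-coordinate end of the neighbouring gene Shisa8 and again had no state 1 bin in CAST/EiJ and PWK/PhJ, and 4 to 6 of 6 in the other 7 strains. Among the 7983 protein-coding genes with at least 1 such block, 2.72% had a block without state 1 in both CAST/EiJ and PWK/PhJ, and among the 7 genes Srebf2 was the one that did. This pair of strains was set after Srebf2 had been seen, and the share for any other pair is not given. The share is per gene whatever its number of blocks, and Srebf2 held 5.

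PWK/PhJ also had the stretch chr15:82166201-82168600, 12 bins, in state 14 where no other strain had state 14. A run of 5 or more bins of this kind, in state 14 in 1 strain and outside it in the other 8, was found in 33.6% of all genes and in 3 of the 7: Srebf2 (PWK/PhJ), Lss (CAST/EiJ) and Scarb1 (C57BL/6J). PWK/PhJ was the strain in question in 21.9% of all genes, CAST/EiJ in 6.35% and C57BL/6J in 1.97%. In the opposite direction, CAST/EiJ alone had state 4 over chr15:82193201-82196000, 14 bins that were in state 14 in the other 8 strains. How often such a state 4 run occurs over all genes was not counted, here or for those of Sqle and Lss below.

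Srebf2 hosts the microRNA gene Mir33 in an intron, at chr15:82198122-82198190. Its products are known to act against transcripts for cholesterol efflux, and their RefSeq sequences are given because the microRNA lies within a stretch of Srebf2 where strains differed, with the seed (bases 2 to 8) in capitals.
mmu-miR-33-5p: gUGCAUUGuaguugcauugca
mmu-miR-33-3p: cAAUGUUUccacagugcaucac
The bin holding the hairpin was in state 4 in 7 strains and in state 14 in NOD/ShiLtJ and PWK/PhJ. The arms differ in their seeds.

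**Figure D4:**
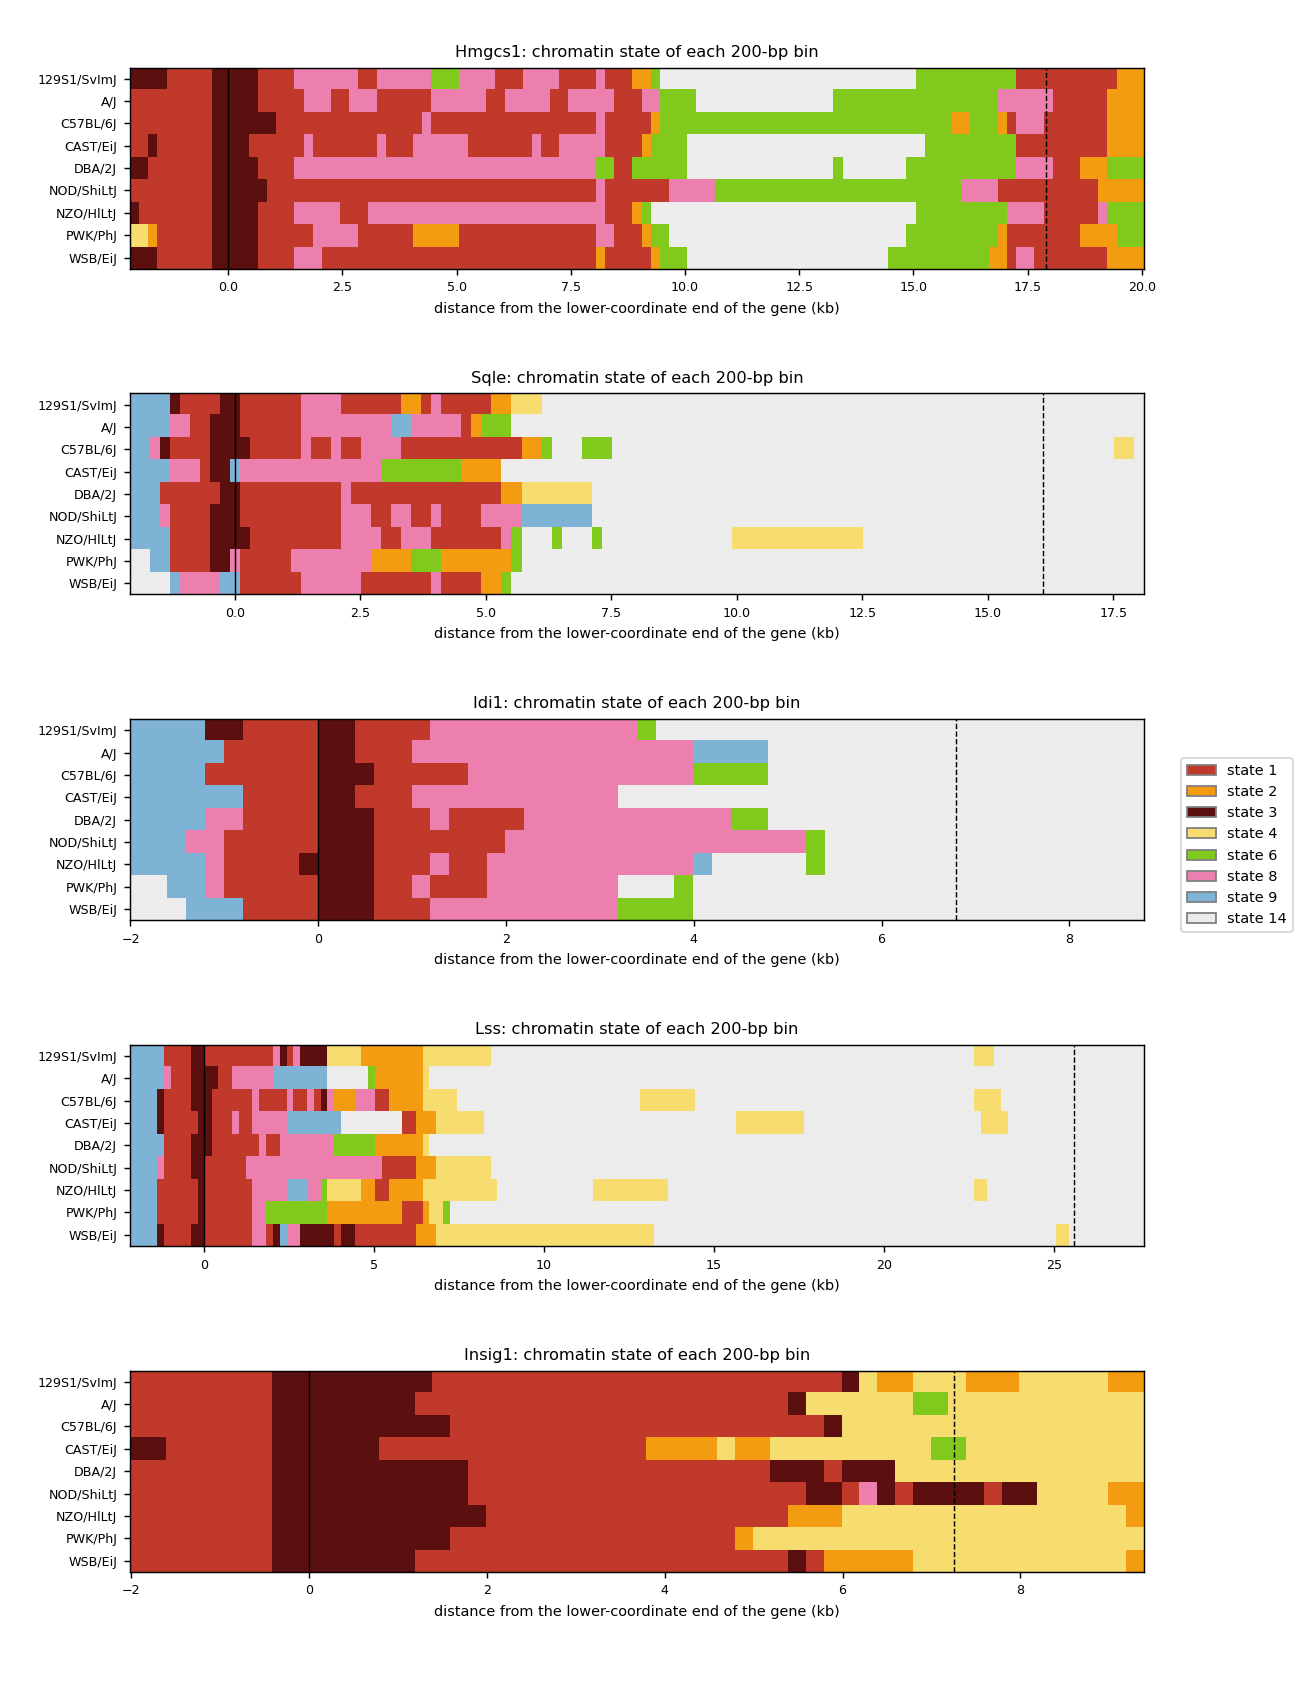
State of each 200-bp bin (colour) along Hmgcs1, Sqle, Idi1, Lss and Insig1 in the 9 strains (rows), by distance in kb from the lower-coordinate end of the gene (solid line, with the other end dashed). State 3 stands at or just before the solid line in each gene and strain except Sqle in WSB/EiJ, states 1 and 8 alternate between strains in Hmgcs1, and Insig1 has no bin in state 14.

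Insig1 lies at chr5:28071412-28078662 on the plus strand and covered 57 bins. It lies wholly within the annotated span of the long noncoding RNA gene Gm35223, so its bins cannot be given to Insig1 alone. None of them was in state 14 in any strain, the only one of the 7 genes for which this held. Between 21 bins in CAST/EiJ and 31 in 129S1/SvImJ, with a median of 29, were in state 1. Between 8 bins in CAST/EiJ and 20 in NOD/ShiLtJ, with a median of 10, were in state 3. Strain disagreement was 4.44% in the 2 kb before the start, where the all-gene median was 22.2%. It was 22.2% in the first 2 kb after the start against 18.3%, and 10% between 2 and 5 kb against 28.1%. Beyond 5 kb, over the end of the gene and its padding, it was 44.2% against 19.9%. There NOD/ShiLtJ and DBA/2J carried further runs of state 3, where CAST/EiJ, NZO/HlLtJ and PWK/PhJ had states 2, 4 or 6. State 4 covered 4 bins of the gene in NOD/ShiLtJ, a median of 16 and 22 in PWK/PhJ. CAST/EiJ alone left state 1 over chr5:28075201-28076200, 5 bins in states 2 and 4.

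Hmgcs1 lies at chr13:119690351-119708260 on the plus strand and covered 111 bins. It was the gene with the most strain disagreement, and 19 of its bins were the same in all 9 strains. The main exchange was between states 1 and 8, 42.0% of its differing bin pairs, and the next between states 6 and 14, 26.0%. State 1 filled 16 bins in DBA/2J, a median of 44 and 63 in NOD/ShiLtJ. State 8 filled 5 bins in C57BL/6J and WSB/EiJ, a median of 14 and 37 in DBA/2J. DBA/2J and NZO/HlLtJ were the 2 strains with more state 8 than state 1, with 36 state 8 and 24 state 1 bins in NZO/HlLtJ. States 1 and 8 together filled between 51 and 73 bins, a narrower range for its size than either state alone. State 8 over the whole genome was at 0.681% in DBA/2J and 0.735% in NZO/HlLtJ, with 0.410% in PWK/PhJ and 0.959% in NOD/ShiLtJ as the extremes. NOD/ShiLtJ had 10 state 8 bins in Hmgcs1, and it had the most state 8 of the 9 strains in Srebf2 (18 bins), Idi1 (18), Lss (21), Scarb1 (6) and Insig1 (1). The part of the genome-wide level in these counts was not tested.

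The body of Hmgcs1 set 2 strains apart in another way. C57BL/6J and NOD/ShiLtJ had no bin of Hmgcs1 in state 14, while the other 7 strains had between 15 and 29. Over chr13:119701001-119703600, 13 bins, these 2 strains were in state 6 and all 7 others in state 14. The disagreement of Hmgcs1 was 15% in the 2 kb before the start, 23.9% in the first 2 kb after it, 57.8% from there to 5 kb, where 94.0% of genes had less, and 51.4% between 5000 and 10000 bp. The strains were thus most alike before the start of Hmgcs1.

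**Figure D5:**
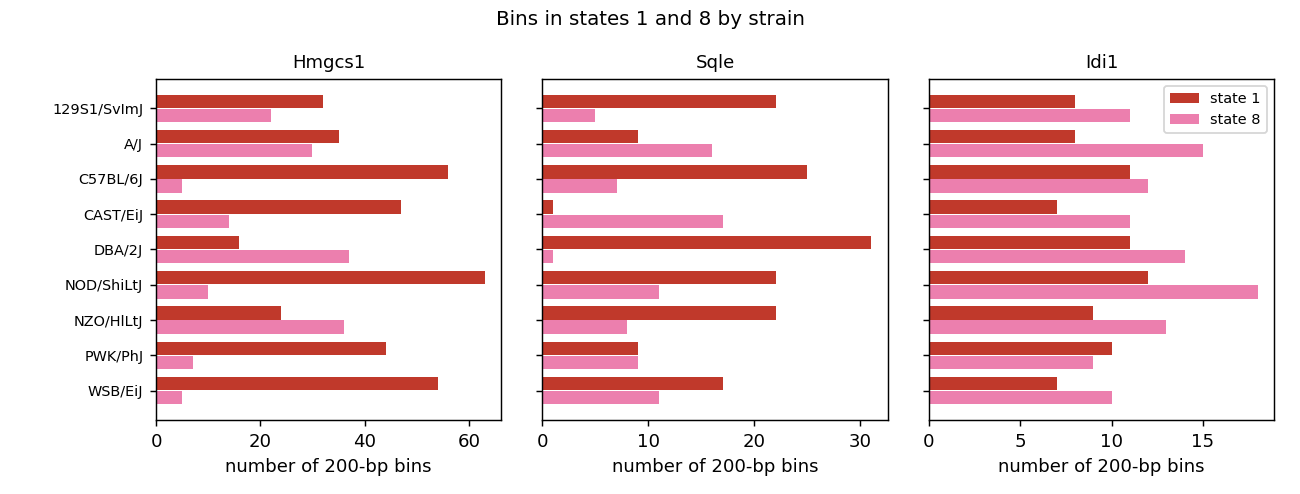
Number of 200-bp bins in state 1 (dark red) and state 8 (pink) on the horizontal axes in Hmgcs1, Sqle and Idi1, by strain (vertical axis). In Hmgcs1 the state 8 bar is longer than the state 1 bar in DBA/2J and NZO/HlLtJ, and in Sqle CAST/EiJ has 1 bin of state 1 and 17 of state 8.

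Idi1 lies at chr13:8885606-8892396 on the plus strand, covered 54 bins and had the least strain disagreement of the 7. State 8 was its main state after state 14, with 9 bins in PWK/PhJ, a median of 12 and 18 in NOD/ShiLtJ. State 1 filled between 7 and 12 bins. The run chr13:8887801-8888800 was in state 8 in all 9 strains, and chr13:8891001-8894400 in state 14 in all 9. Between 46.3% of the bins in PWK/PhJ and 68.5% in NOD/ShiLtJ were outside state 14. The exchanges were between states 1 and 8 (24.1%), 8 and 14 (20.5%), 9 and 14 (13.3%) and 6 and 14 (12.6%). Strain disagreement was 28.9% before the start, 30% in the first 2 kb after it and 38.9% from there to 5 kb, and 3.22% beyond. States 2 and 4 did not occur in Idi1 in any strain.

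Sqle lies at chr15:59315092-59331193 and covered 101 bins. Its bins outside state 14 lay mostly towards the lower-coordinate end, and chr15:59327601-59332600 was in state 14 in all 9 strains. State 1 filled 1 bin in CAST/EiJ, 9 in A/J and PWK/PhJ, a median of 22 and 31 in DBA/2J. State 8 filled 1 bin in DBA/2J, a median of 9 and 17 in CAST/EiJ. CAST/EiJ and DBA/2J were thus at opposite ends for both states. The stretch chr15:59315201-59316400, just inside the gene, was in state 8 in all 6 bins in CAST/EiJ, and 5 or 6 of its bins were in state 1 in the other 8 strains. In WSB/EiJ, where Sqle had no state 3, 17 bins were in state 1 and 11 in state 8. WSB/EiJ also had the smallest share of bins outside state 14, 33.7%, against 53.5% in NZO/HlLtJ. NZO/HlLtJ alone had state 4 over chr15:59325001-59327600, 13 bins that were in state 14 in the other 8 strains.

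Lss lies at chr10:76531565-76557139 on the plus strand and covered 149 bins, of which 62.6% ± 8.30 were in state 14. Its unusual part was the stretch between 2 and 5 kb after the start. There 85.0% of bins differed per strain pair, and none of the 17033 genes with a strand and enough bins had a higher value, against a median of 28.1%. With a match 1 bin away counted as agreement the value was 76.2% and 1 gene was higher. Each strain left out in turn gave between 82.6% and 87.1%. Of the 15 bins, NOD/ShiLtJ had all in state 8. WSB/EiJ had 8 in state 3 and 4 in state 1, and 129S1/SvImJ had 5 in state 3 and 5 in state 4. A/J had 8 in state 9 and 6 in state 14, and CAST/EiJ likewise had 8 in state 9 and 5 in state 14. PWK/PhJ had 8 in state 6 and 7 in state 2, and DBA/2J had 8 in state 8 and 6 in state 6. This stretch was noticed among 5 distance bands after the values had been seen.

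The second state 3 segment of Lss in this stretch made WSB/EiJ the strain with the most state 3 in the gene, 11 bins against 1 in NZO/HlLtJ and PWK/PhJ and a median of 3. Further in, the main exchange was between states 4 and 14, 45.3% of the differing bin pairs of Lss. WSB/EiJ alone had state 4 over chr10:76540201-76543000, 14 bins, and CAST/EiJ alone over chr10:76547201-76549200, 10 bins, and both stretches were in state 14 in the other 8 strains. The second lies within the span of the long noncoding RNA gene 4930483K19Rik, which overlaps Lss. CAST/EiJ alone had state 14 over chr10:76536401-76537400, 5 bins. The share of bins outside state 14 was 25.5% in A/J, 37.6% in 129S1/SvImJ, which was the median, and 53.0% in WSB/EiJ.

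Scarb1 lies at chr5:125277087-125341094 and covered 341 bins, of which 93.8% ± 7.24 were outside state 14. In CAST/EiJ and WSB/EiJ none was in state 14, and PWK/PhJ (82.7%), C57BL/6J (83.9%) and NZO/HlLtJ (87.4%) had the smallest shares outside it. State 1 filled 100 bins in PWK/PhJ, 105 in CAST/EiJ, a median of 135 and 168 in NOD/ShiLtJ. State 2 filled 53 bins in NOD/ShiLtJ, a median of 80 and 119 in CAST/EiJ. The strain with the most of state 1 had the least of state 2, and the exchange between these 2 states made up 39.5% of the differing bin pairs of Scarb1, against 30.4% between states 4 and 14.

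State 1 in Scarb1 was laid out as long blocks on the side of the state 3 segment. The longest, chr5:125304801-125314200, spans 9400 bp, with 28 of 47 bins in state 1 in PWK/PhJ, 34 in CAST/EiJ and 47 in 129S1/SvImJ, A/J, NOD/ShiLtJ and WSB/EiJ. It overlaps the long noncoding RNA gene Gm32701, so its bins cannot be given to Scarb1 alone. The run chr5:125323401-125327000, 3600 bp, was in state 1 in all 9 strains and is the longest run of state 1 shared by all strains in the 7 genes. NZO/HlLtJ alone had state 2 over chr5:125332001-125333400, 7 bins in state 1 in the other 8 strains. C57BL/6J alone had state 14 over chr5:125278801-125280000 and chr5:125295001-125296200, 6 bins each, in state 4 in the other 8.

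The genes most like each member were found by total variation distance between the shares of the 14 states. The distance was taken within each strain and then averaged over the strains, and is 0% for equal shares. A gene whose shares vary between strains can be set further off by this measure. Srebf2 was closest to Ttc39b (11.8%) and Cmip (12.0%). Hmgcs1 had no close match by this measure, with Serpina10 at 23.4% and Cpeb4 at 24.0%, and its own differences between strains enter these values. Insig1 was closest to Tst (13.4%) and Bcl6 (15.6%), and Idi1 to Lmo4 (12.1%) and Sec61g (13.1%). Sqle was closest to Zc3hav1 (13.5%) and Cfi (14.01%), Lss to Usp16 (12.4%) and Adam17 (12.8%), and Scarb1 to Il6ra (11.7%) and Ndst1 (12.9%). None of these is another of the 7 genes.

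A list of 30 further genes of the pathway, all found, gives the setting. For all 30, state 3 was looked for only within 1 kb of the annotated start, or of both ends where no strand was known. State 3 elsewhere in a gene was not counted. Of these, 20 had state 3 at the start in all 9 strains and 5 in none, where 39.4% of all genes with a strand and 36.2% of those without had it in all 9. Their median strain disagreement was 30.4%, with a range from 5.91% to 50.5%, and the all-gene median was 19.7%. The median over genes with state 3 at the start in all strains was 21.6%. These values count all bins, and no median over marked bins is given for the 30. In the mevalonate branch 5 of 7 had state 3 in all strains. Fdps, which makes farnesyl diphosphate, had the highest disagreement (50.5%) and Mvk, mevalonate kinase, the lowest (14.6%). Pmvk and Fdft1 had no state 3 in these windows in any strain, although state 1 covered 53.9% of Fdft1, the squalene synthase gene. In the sterol branch 7 of 10 had state 3 in all strains, and Msmo1, sterol methyl oxidase, was highest (47.9%) and Lbr lowest (5.91%). Tm7sf2 lacked state 3 in CAST/EiJ, Ebp lacked it in 6 strains and Nsdhl in all 9, and both Ebp and Nsdhl are on the X chromosome.

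Of 5 genes for sterol sensing and SREBP processing, Scap, which escorts SREBP, and Mbtps1, a protease that cuts it, had state 3 in all strains. Insig2 had the highest disagreement (40.1%) and lacked state 3 in C57BL/6J. Mbtps2, on the X chromosome, had the lowest (6.53%) and lacked it in CAST/EiJ. Srebf1 had no state 3 within 1 kb of its annotated start in any strain, with 52.7% of its bins in state 1. Starts inside Srebf1 were not searched. Its paralog Srebf2 had state 3 at its annotated start in all 9. Of 8 genes for uptake and handling, 6 had state 3 in all strains. Abcg5, one subunit of a sterol export transporter, was highest (46.3%) and Lrp1, an endocytic receptor, lowest (23.5%). Abcg8, the partner of Abcg5, had state 3 near its annotated start in A/J alone. Soat2, which esterifies cholesterol, had it near neither end in any strain.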

How the data were processed

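The series holds 117 ChIP-seq libraries, 13 per strain, which were grouped by the strain in their labels. The deposited files are 9 segmentations, 1 per strain, made by the authors from these libraries: intervals that carry no count or signal but a category, 1 of 14 states. Per the submitters' processing notes the build is mm10 and FastQC 0.11.5 and MACS 1.4.2 were used. The aligner, the segmentation tool and the marks behind each state are not given in the sources used here, and the depth is unknown, so no counting interval is given.

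Intervals were written as 200-bp bins, and gene spans, padded by 2 kb, were taken from a RefSeq table of GRCm38.p6. Strand came from the RefSeq promoter table, which holds 17273 of the 21627 genes. Start windows reached 1 kb to each side. No test was run: a strain has 1 map, the labels set no strains against others, and values are described beside those of all protein-coding genes. The 7 genes and the lists were chosen with earlier results of these data known. The text names all 7 genes, their 2 most similar genes with at least 20 bins, and in each branch of the pathway list the genes of highest and lowest disagreement and those lacking state 3 in a strain. Coordinates are counted from 1. Tools were numpy 2.4.6 and pandas 2.3.3 under Python 3.11.15, with matplotlib 3.10.9 for figures. Alternatives were other paddings and windows, only bins wholly inside the span, a match within 1 bin, merged states 13 and 14, marked bins only and each strain left out.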

Additional observations from a re-analysis of the deposited data

Results flagged for a closer look

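In 24 sets of 9 strain values, each a share or disagreement of the 7 genes, the highest and lowest strain were compared with their nearest neighbour, with Dixon's critical value for 9 values as the limit for the gap over the range. About 1.2 such sets are expected by chance at this limit, and 2 passed it, both for PWK/PhJ and not independent of each other. The share of state 14 over the spans of the 7 genes was 39.4% in PWK/PhJ and between 27.0% and 31.0% in the other 8 strains. The share of state 14 in Srebf2 was 49.8% in PWK/PhJ and between 16.1% and 31.8% in the other 8. Over the whole genome state 14 covered 73.4% in PWK/PhJ, inside the range from 70.7% in A/J to 74.05% in DBA/2J. The flagged shares are of gene spans, and the share of PWK/PhJ over all gene spans, the closer comparison, is not given. PWK/PhJ also had runs of 5 or more bins in state 14 that the other 8 strains lacked in 21.9% of all genes, against at most 6.35% (CAST/EiJ) for any other strain.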

How the results depend on the processing

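Leaving out each strain in turn moved none of the 36 values for the set of 7 genes by as much as 1 SD over the strains. None of the 63 for single genes moved that far either. A mean over the strains, or the strain disagreement of a single gene, cannot shift that far when 1 strain is dropped. For the shares and the single genes this limit therefore could not show whether a result rests on 1 strain. Only the median strain disagreement of the 7 genes was not bound in this way. With a strain left out, state 3 in start windows ranged from 30.3% to 31.4% and the state 1 share from 25.3% to 26.8%. The state 14 share ranged from 29.3% to 30.9% and the median strain disagreement from 27.3% to 29.5%. State 3 in start windows was 46.9% with 500 bp and 18.2% with 2 kb to each side, and 41.6% over the 5 genes with a strand, an alternative chosen after seeing the data, as were those for the stretch of Lss. Padding by 5 kb gave 22.1% for state 1 and 36.1% for state 14. Counting a match within 1 bin as agreement gave a median disagreement of 21.9%, and bins outside state 14 in at least 1 strain gave 38.5%. Of 35 values of single genes under settings other than leaving out a strain, 13 moved: 6 of 7 down with a match within 1 bin, 3 up over marked bins, 1 up and 2 down with 5 kb and 1 up without padding. Hmgcs1 and then Srebf2 had the most disagreement in every setting except marked bins. No paired analysis was possible because no result comes from a test and mice are combined within a strain. Depth is unknown, so what it limits cannot be given.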
